A study of Mus musculus with 6 samples.

Results

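Amino acid transporters move amino acids across the plasma membrane and the membranes of lysosomes and synaptic vesicles. The 46 genes described here are a fixed list of such carriers from the SLC1, SLC3, SLC6, SLC7, SLC36, SLC38 and SLC43 families. They are taken from 21938 protein-coding genes of the GENCODE mouse annotation on chromosomes 1 to 19, X and Y. They were chosen by name and not by a measured value, but with earlier results of these data known. Of the 46, 12 carry mainly serine, glycine or glutamine and were set beside the other 34. The measurement was ChIP-seq of H3K9me3, trimethylated lysine 9 of histone H3, in neural stem cells (NSCs) derived from fetal C57BL/6J mouse cortex at E12.5 and grown in culture with EGF and FGF. The control group (shCTR, 2 libraries) received a lentivirus with a scrambled shRNA, and the other group (shPHF8, 2 libraries) a lentivirus with an shRNA against PHF8, a histone demethylase. Both groups were selected with puromycin, and 1 input sample per group, with no peak list, was not used here. A single shRNA against PHF8 stood behind the peak lists, as far as the labels tell, and nothing in the labels says whether the replicates were separate cultures, so the spread between them may be technical.

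H3K9me3 is a mark of heterochromatin that is read by HP1 proteins and is usually associated with silent genes and repeats. PHF8 binds trimethylated lysine 4 of histone H3 at active promoters and removes methyl groups from other histone lysines, among them lower methylation states of the lysine measured here. In neural progenitors, carriers of glutamine, serine, glycine, cystine and large neutral amino acids supply protein, nucleotide and glutathione synthesis, whereas several carriers of glutamate and glycine serve neurotransmitter clearance in mature glia and neurons. Many carriers of the SLC7 family reach the cell surface only when paired with a heavy chain of the SLC3 family.

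Each library had a list of broad peaks, with positions and no heights. Replicate 1 and replicate 2 are given in that order throughout. There were 53309 and 54110 peaks for shCTR against 44318 and 55557 for shPHF8. Peaks were wider in shPHF8, with median widths of 2400 and 2400 bases in shCTR against 4200 and 2800 bases in shPHF8. The genome covered by peaks was 157 and 160 Mb in shCTR against 219 and 197 Mb in shPHF8, so covered bases are given below as deposited, and calls that change when every library is scaled to the same covered total are named. Read depth cannot be read from the lists and was not used. The paper's appendix gives uniquely mapped reads for these libraries, and they were fewest in shPHF8 replicate 2. A peak list says nothing of expression, so cell identity could not be checked. As a background, 5 of 8 neural stem cell genes had a peak within 3 kb of the start site in at least 1 library (1 of them, Pax6, in all 4) and 0 of 6 housekeeping genes did.

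H3K9me3 lay over the start sites of a few carriers in all libraries, and near others in 1 condition only. The sequences around 6 of these start sites are shown for the CG content given below. Each is the RefSeq window of 300 bases, from 250 before the start to 50 after it, on build GRCm38.p6, in lower case with every CG dinucleotide in capitals. The start sites of Slc6a5, Slc7a10, Slc7a14 and Slc7a15 were under a peak in all 4 libraries, Slc1a1 had a peak closer to its start in shPHF8, and Slc7a11 had a peak just downstream of its start in shCTR only. At Slc1a1 and Slc7a11 these peaks lay outside the printed window. The start of Slc6a15, under a peak in shCTR only, had no RefSeq window and is not shown. The last sequence is the middle 300 bases of an intronic region of Slc1a4 that had a peak in both shCTR and in neither shPHF8 library, read on the gene's strand.
Slc6a5 start, chr7:49910049-49910348, plus strand: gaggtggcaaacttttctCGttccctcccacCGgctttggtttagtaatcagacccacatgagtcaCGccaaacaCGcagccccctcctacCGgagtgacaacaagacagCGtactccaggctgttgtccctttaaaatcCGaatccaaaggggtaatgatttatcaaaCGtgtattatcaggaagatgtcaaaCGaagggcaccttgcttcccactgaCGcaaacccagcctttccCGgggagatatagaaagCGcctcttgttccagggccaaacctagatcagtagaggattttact
Slc7a10 start, chr7:35186135-35186434, plus strand: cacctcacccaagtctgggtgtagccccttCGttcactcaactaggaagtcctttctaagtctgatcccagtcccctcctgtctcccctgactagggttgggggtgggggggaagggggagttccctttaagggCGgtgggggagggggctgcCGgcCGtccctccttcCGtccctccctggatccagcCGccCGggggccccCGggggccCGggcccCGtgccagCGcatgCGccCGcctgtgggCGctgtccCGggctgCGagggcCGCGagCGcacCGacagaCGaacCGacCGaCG
Slc7a14 start, chr3:31310270-31310569, minus strand: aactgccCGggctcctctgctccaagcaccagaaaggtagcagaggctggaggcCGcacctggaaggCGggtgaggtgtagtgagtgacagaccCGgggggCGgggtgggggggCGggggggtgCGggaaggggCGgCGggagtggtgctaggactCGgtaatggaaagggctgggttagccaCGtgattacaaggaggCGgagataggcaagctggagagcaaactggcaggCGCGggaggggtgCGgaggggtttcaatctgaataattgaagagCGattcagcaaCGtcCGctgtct
Slc7a15 start, chr12:8599017-8599316, minus strand: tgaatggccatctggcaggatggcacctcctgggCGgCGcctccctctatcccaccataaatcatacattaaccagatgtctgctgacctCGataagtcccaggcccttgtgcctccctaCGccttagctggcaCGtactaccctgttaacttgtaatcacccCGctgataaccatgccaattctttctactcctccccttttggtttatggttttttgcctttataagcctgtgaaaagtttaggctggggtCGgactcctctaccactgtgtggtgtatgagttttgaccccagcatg
Slc1a1 start, chr19:28834885-28835184, plus strand: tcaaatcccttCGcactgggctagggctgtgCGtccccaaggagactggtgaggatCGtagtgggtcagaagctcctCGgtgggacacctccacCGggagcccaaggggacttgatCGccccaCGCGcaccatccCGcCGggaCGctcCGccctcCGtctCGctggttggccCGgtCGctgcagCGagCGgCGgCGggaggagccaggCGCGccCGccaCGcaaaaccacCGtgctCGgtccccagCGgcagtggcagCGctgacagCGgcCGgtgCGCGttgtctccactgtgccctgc
Slc7a11 start, chr3:50443564-50443863, minus strand: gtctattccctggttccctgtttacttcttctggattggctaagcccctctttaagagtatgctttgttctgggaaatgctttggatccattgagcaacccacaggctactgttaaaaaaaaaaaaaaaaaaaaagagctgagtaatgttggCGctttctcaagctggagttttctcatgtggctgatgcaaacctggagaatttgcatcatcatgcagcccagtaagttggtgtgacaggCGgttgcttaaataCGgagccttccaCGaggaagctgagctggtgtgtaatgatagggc
Slc1a4 intronic region, chr11:20312151-20312450, minus strand: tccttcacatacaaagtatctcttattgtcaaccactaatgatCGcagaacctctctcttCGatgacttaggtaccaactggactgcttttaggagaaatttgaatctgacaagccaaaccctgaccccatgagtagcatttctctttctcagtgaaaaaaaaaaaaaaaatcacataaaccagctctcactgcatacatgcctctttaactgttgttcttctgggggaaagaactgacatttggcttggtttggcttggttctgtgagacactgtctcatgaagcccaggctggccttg

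RefSeq windows under a peak in all libraries and those free of peaks had close median CG content among the carriers. The windows held 12 CG dinucleotides at Slc6a5, 24 at Slc7a10, 18 at Slc7a14, 7 at Slc7a15, 32 at Slc1a1 and 4 at Slc7a11. Among the 32851 RefSeq windows of all genes, 39.6% held at least as many as Slc6a5, 20.0% as Slc7a10, 29.7% as Slc7a14, 52.1% as Slc7a15, 9.52% as Slc1a1 and 68.6% as Slc7a11. RefSeq windows were at hand for 34 of the 46 genes, and 24 of these held at least 10 CG dinucleotides, against 43.5% of all windows. The median was 16 over the carriers and 7 over all windows. It was 15 for the 4 carriers whose window was under a peak in all 4 libraries and 16 for the 26 whose window was free of peaks in every library. The first set is small, and its windows held from 7 to 24. Some peak-free windows lay away from the GENCODE start used elsewhere, by 47779 bases at Slc1a2, 12229 at Slc6a19, 9472 at Slc3a2 and 1473 at Slc43a1. The intronic stretch of Slc1a4 held 2 CG dinucleotides, and 31% of its bases were soft-masked as repeats in the reference. Over all bodies of the 46 genes, bases under a peak in all 4 libraries were 22.4% soft-masked and 47.7% G or C, and bases free of peaks were 25.7% soft-masked and 44.0% G or C. The same figures over all protein-coding genes were 26.9% and 46.5% under peaks and 27.7% and 42.5% outside them.

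Of the 46 carriers, 21 had a peak within 3 kb of the start site in at least 1 library, or 45.7%, beside 28.0% of all protein-coding genes. In all 4 libraries this held for 5 carriers, or 10.9%, beside 11.1% of all genes. At 8 of the 21 the peak was in 1 library only. The start site itself was under a peak in at least 1 library at 10 carriers (21.7%), beside 10.7% of all genes. It was under a peak in all 4 libraries at 4 carriers (8.70%), beside 3.62%. The 25 carriers with no peak in this window included the main leucine importer Slc7a5, its heavy chain Slc3a2 and the glutamine carrier Slc38a2.

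**Figure D1:**
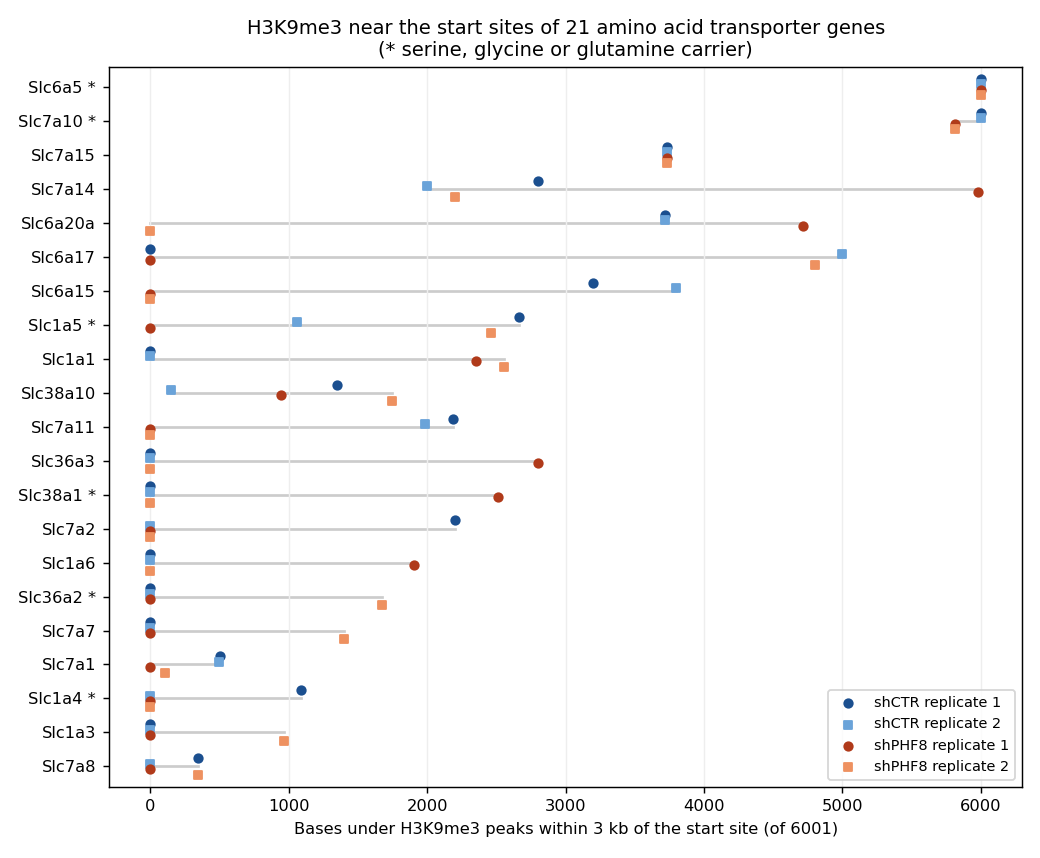
Bases under H3K9me3 peaks within 3 kb of the start site (x axis, of 6001 bases) for the 21 carriers with a peak there in at least 1 library, with 1 point per library and a grey line over the range. Slc6a5, Slc7a10 and Slc7a15 sit at almost the same value in all 4 libraries, Slc1a1 is above 0 in shPHF8 only, and Slc6a15 and Slc7a11 are above 0 in shCTR only.

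Between conditions, 1 carrier had more covered bases near its start in both shPHF8 than in both shCTR libraries (2.17%, beside 4.05% of all genes) and 4 had fewer (8.70%, beside 4.09%). With 2 libraries against 2, an exact permutation test cannot give a two-sided p below 0.333, so these and all later counts describe groups of libraries that do not overlap and carry no test. The single higher gene was Slc1a1. The lower ones were Slc6a15, Slc7a1, Slc7a10 and Slc7a11, and at Slc7a1 and Slc7a10 the gap between the groups was under 400 bases, that is, of the size of 1 or 2 of the 200 bp steps of the peak lists. After scaling to the same covered total, 7 promoters were lower (15.2%, beside 8.88% of all genes), with Slc6a5, Slc6a20a and Slc7a15 added. Slc6a5 and Slc7a15 had equal covered bases in all 4 libraries, 6001 and 3735, so scaling made them lower by construction. Without shCTR replicate 2, 7 promoters were lower. Higher ones numbered 3 without shCTR replicate 1, 5 if shPHF8 replicate 1 and 6 if shPHF8 replicate 2 was left out. With a library left out, fewer libraries had to be separated, and the share over all genes was not computed.

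Among the serine, glycine and glutamine carriers, the mark was steadiest at 2 start sites. Slc6a5, the glycine transporter GlyT2 of glycinergic neurons, was covered over all 6001 bases of the window in each of the 4 libraries. Its region, chr7:49904201-49921600, began upstream of the gene and reached 11454 bases into it. Slc7a10, the exchanger Asc-1 for glycine, L-serine and D-serine, was covered over 6001 and 6001 bases in shCTR against 5816 and 5816 bases in shPHF8. Upstream of Slc7a10, the separate peaks of the shCTR libraries were joined into 1 peak in each shPHF8 library. Both genes thus kept H3K9me3 over the start after PHF8 depletion, as far as the peak lists show.

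The other promoter peaks of this list differed in covered bases between the replicates of at least 1 group. Slc1a5, the glutamine importer ASCT2, had 2661 and 1061 covered bases in shCTR against 0 and 2461 in shPHF8, all upstream of the start. That region was present in all 4 libraries, and in shPHF8 replicate 1 its edge lay just outside the window, 3339 bases from the start. Slc38a1, the sodium-coupled glutamine carrier SNAT1, had 2513 covered bases in shPHF8 replicate 1 and none in the other libraries. Slc36a2, a proton-coupled carrier of glycine, alanine and proline, had 1677 bases in shPHF8 replicate 2 only. Slc1a4, the exchanger ASCT1 for serine, alanine and cysteine, had 1088 bases in shCTR replicate 1 only. Each of these values rests on 1 library or on where a peak edge fell, and the groups overlapped.

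**Figure D2:**
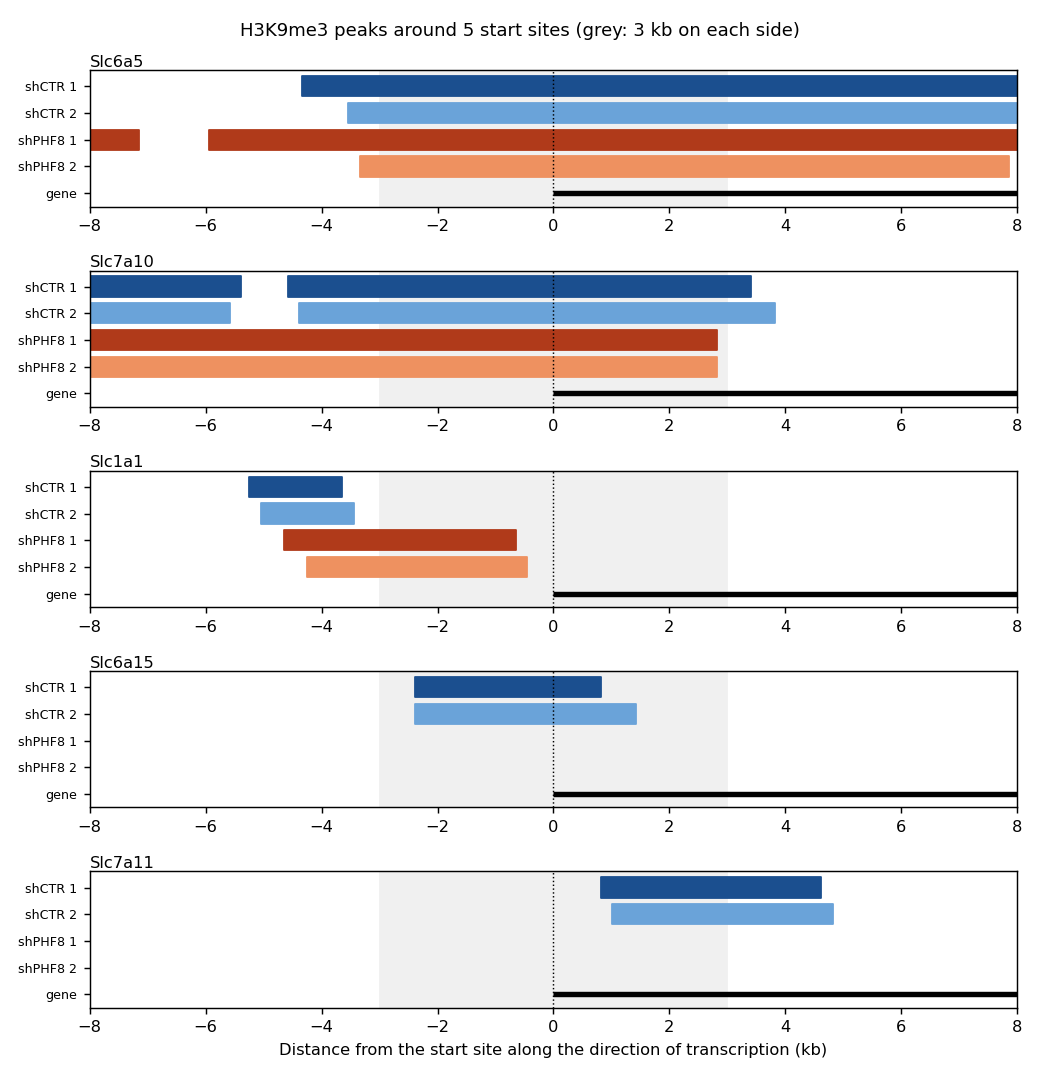
H3K9me3 peaks (bars, 1 row per library) around 5 start sites, by distance from the start in kb, with the gene as a black line, the 3 kb window on each side in grey and peaks drawn only within 8 kb. The bars over Slc6a5 and Slc7a10 cross the start in all 4 libraries, those at Slc1a1 end 3448 to 3648 bases upstream in shCTR against 448 to 648 bases upstream in shPHF8, and Slc6a15 and Slc7a11 have bars in the 2 shCTR rows only.

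In the group of glutamate, aspartate and cystine carriers, both directions were seen. Slc1a1, the neuronal glutamate and cysteine carrier EAAT3, had 0 and 0 covered bases in the window in shCTR against 2352 and 2552 in shPHF8. The region itself, chr19:28829801-28834600, was present in all 4 libraries, and the shPHF8 peaks ended about 3 kb closer to the gene and were wider, at 4000 and 3800 bases against 1600 and 1600. The start site of Slc1a1 stayed free of peaks, with the nearest peak edge 648 and 448 bases upstream in shPHF8. This call was no longer made when each library was reduced to its widest peaks so that all covered the same length.

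Slc7a11, the cystine and glutamate exchanger xCT that feeds glutathione synthesis, went the other way. It had 2187 and 1987 covered bases near its start in shCTR against 0 and 0 in shPHF8. The region, chr3:50438801-50442800, lay from 814 to 4813 bases downstream of the start and included 115 coding bases. The nearest shPHF8 peaks were 30186 and 47986 bases from the start, so no peak edge was close to the window. Slc1a3, the glutamate carrier GLAST of radial glia, had 964 bases near its start in shPHF8 replicate 2 only, and Slc1a6, the Purkinje cell carrier EAAT4, had 1905 bases in shPHF8 replicate 1 only.

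Among the carriers of cationic amino acids, Slc7a14, a neuronal member of the CAT family, had a peak over its start in all 4 libraries. The covered bases were 2800 and 2000 in shCTR against 5978 and 2200 in shPHF8, and the high value belonged to replicate 1 alone. Slc7a1, the arginine and lysine importer CAT1, had 504 and 497 bases in shCTR against 0 and 104 in shPHF8. The shCTR values came from different regions, upstream of the start in replicate 1 and downstream in replicate 2, at the outer edges of the window. Slc7a2, the arginine carrier CAT2, had 2200 bases in shCTR replicate 1 only, and Slc7a7, the light chain y+LAT1, had 1400 bases in shPHF8 replicate 2 only.

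For the large neutral amino acid carriers, promoter peaks were few. Slc7a15, a LAT family member with no settled substrate, had 3735 covered bases at its start in each of the 4 libraries. Slc7a8, the light chain LAT2, had 346 and 0 bases in shCTR against 0 and 346 in shPHF8, from a region that lay mainly upstream of the window. No peak lay near the start of Slc7a5 (LAT1), or the facilitators Slc43a1 and Slc43a2 and their purine-carrying relative Slc43a3. The same held for Slc7a12 (Asc-2), which was listed in this group although it carries small neutral amino acids. The heavy chains Slc3a1 (rBAT) and Slc3a2 (4F2hc, CD98) had no peak in the window or the gene in any library.

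In the remaining SLC6, SLC36 and SLC38 carriers, 1 start site lost its peak in both shPHF8 libraries. Slc6a15, the neuronal carrier B0AT2 of branched-chain amino acids and proline, had 3200 and 3800 covered bases in shCTR against 0 and 0 in shPHF8. The region, chr10:103365401-103369200, crossed the start, and the nearest shPHF8 peaks were 101182 and 331382 bases away. Slc6a20a, a copy of the proline carrier SIT1, had 3716 and 3716 bases in shCTR against 4716 and 0 in shPHF8. The same region covered the start of the neighbouring chemokine receptor gene Ccr9. Slc6a17, the vesicular carrier NTT4, had 0 and 5000 bases in shCTR against 0 and 4800 in shPHF8, so it differed between replicates of both groups and not between the groups.

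The last 2 promoters of this group were Slc38a10 and Slc36a3. Slc38a10, a SNAT family member, had 1346 and 146 bases in shCTR against 946 and 1746 in shPHF8, all upstream. Slc36a3, a member of the PAT family, had 2800 bases over its start in shPHF8 replicate 1 only. Slc6a6 (taurine), Slc6a19 (neutral amino acids in gut and kidney), Slc36a4 (proline and tryptophan), Slc38a6, Slc38a9 (the lysosomal arginine sensor) and Slc38a11 had no peak within the window.

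Over gene bodies, 29 of the 46 carriers had a peak in at least 1 library (63.0%) and 19 in all 4 (41.3%). The shares over all protein-coding genes were 47.2% and 29.4%. These carriers are longer than most genes, with a median length of 38277 against 17425 bases, and among the 13332 genes within their range of lengths the shares were 61.5% and 40.3%. In all, 13 carriers had no peak in the body or the promoter window in any library: Slc3a1, Slc3a2, Slc6a9, Slc6a19, Slc7a4, Slc7a5, Slc7a9, Slc7a12, Slc7a13, Slc36a4, Slc38a7, Slc43a1 and Slc43a3. They include the glial glycine transporter GlyT1 (Slc6a9), the lysosomal glutamine carrier Slc38a7, the cystine light chain Slc7a9 and the kidney carrier Slc7a13 of aspartate and glutamate. Another 4, Slc1a1, Slc1a5, Slc1a6 and Slc38a10, had a peak in the promoter window and none in the body.

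**Figure D3:**
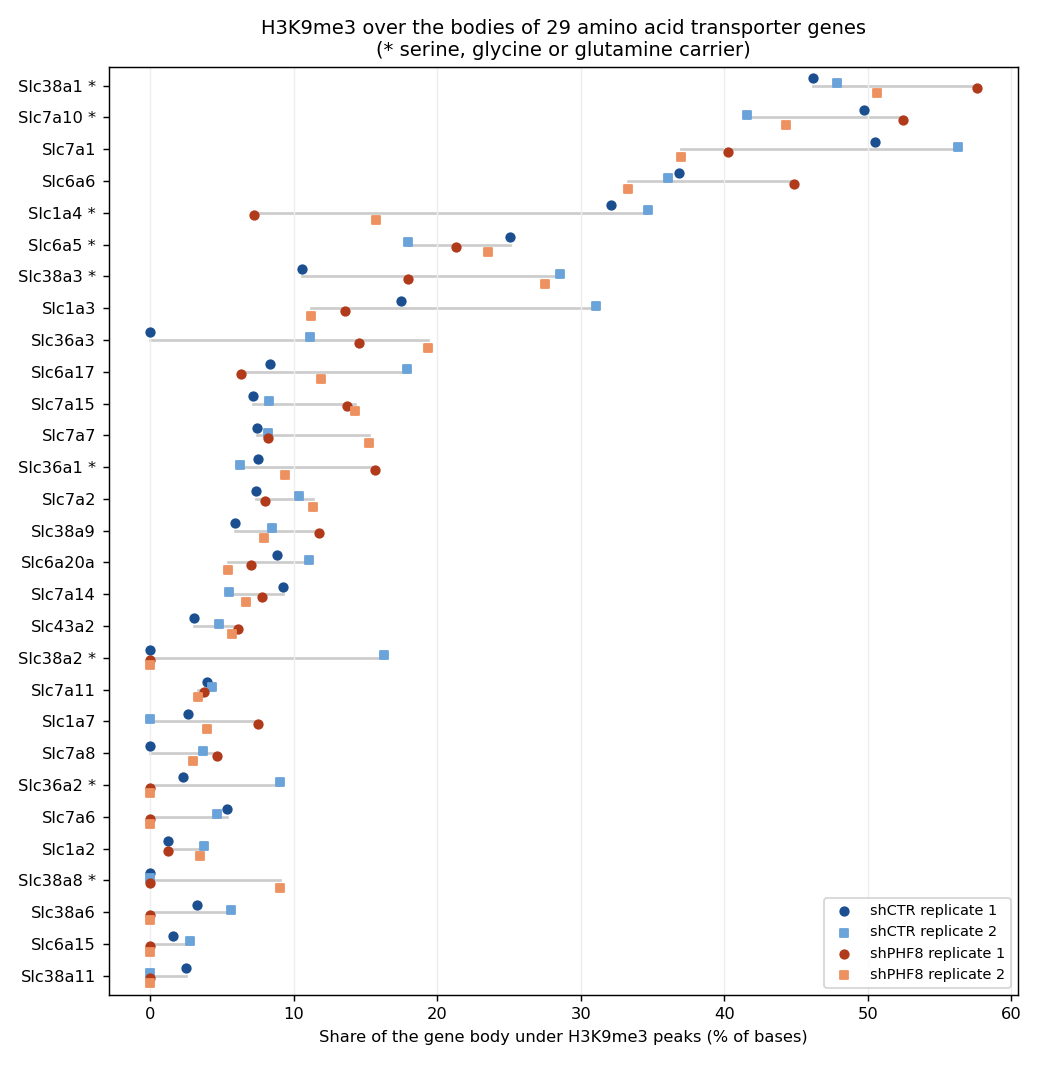
Share of the gene body under H3K9me3 peaks (x axis, % of bases) for the 29 carriers with a body peak in at least 1 library, with 1 point per library and a grey line over the range, ordered by the mean of the 4 libraries. Slc38a1, Slc7a10 and Slc7a1 have the highest means, up to 50.6%, Slc1a4 and Slc7a1 are lower in both shPHF8 libraries, and most genes in the lower part stay under 10%.

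The most broadly marked body was that of Slc38a1 (SNAT1, chr15:96571418-96642913). Peaks covered 46.2 and 47.8% of it in shCTR against 57.6 and 50.6% in shPHF8, a mean of 50.6% over the 4 libraries. Most of this was 1 region of 27800 bases near the start of the gene, where the libraries differed little, with 26200 and 26000 covered bases in shCTR against 25600 and 25200 in shPHF8. The difference between the groups lay in smaller regions further into the gene, mostly at different places in the 2 shPHF8 libraries. In replicate 1 these were mainly chr15:96582801-96588200 (2000 and 2200 bases in shCTR against 5200 and 1800) and chr15:96592601-96599600 (2000 and 2800 against 6800 and 2400). In replicate 2 it was mainly chr15:96578001-96580800, with 2800 bases in that library alone. At chr15:96600201-96604600 both shPHF8 libraries were higher, with 2800 and 3200 bases against 3600 and 4000. When libraries were scaled to the same covered total, the gene turned from higher to lower in shPHF8.

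The next were Slc7a10, Slc7a1, Slc6a6 and Slc1a4. Slc7a10 (Asc-1) had 49.8 and 41.6% in shCTR against 52.5 and 44.3% in shPHF8, and peaks covered 52.1 to 87.1% of its coding bases. Slc6a6, the taurine transporter, had 36.9 and 36.1% in shCTR against 44.9 and 33.3% in shPHF8 over 8 separate regions, of which 4 were present in all libraries. As deposited, the groups overlapped at both genes. Scaled to the same covered total, both genes were lower in both shPHF8 libraries, and Slc6a6 was lower at equal covered length too.

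Slc7a1 and Slc1a4 had less H3K9me3 in both shPHF8 libraries. Slc7a1 (CAT1, chr5:148327410-148399904) had 36600 and 40800 covered bases in shCTR against 29200 and 26800 in shPHF8. The region inside the gene, which spanned 34600 bases, was 1 or 2 peaks in shCTR against 2 or 3 peaks in shPHF8. Slc1a4 (ASCT1, chr11:20302180-20332713) had 9800 and 10600 bases in shCTR against 2200 and 4800 in shPHF8. An intronic region of this gene was seen in shCTR only, whereas the region over its coding exons near the 3′ end was present in all libraries.

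**Figure D4:**
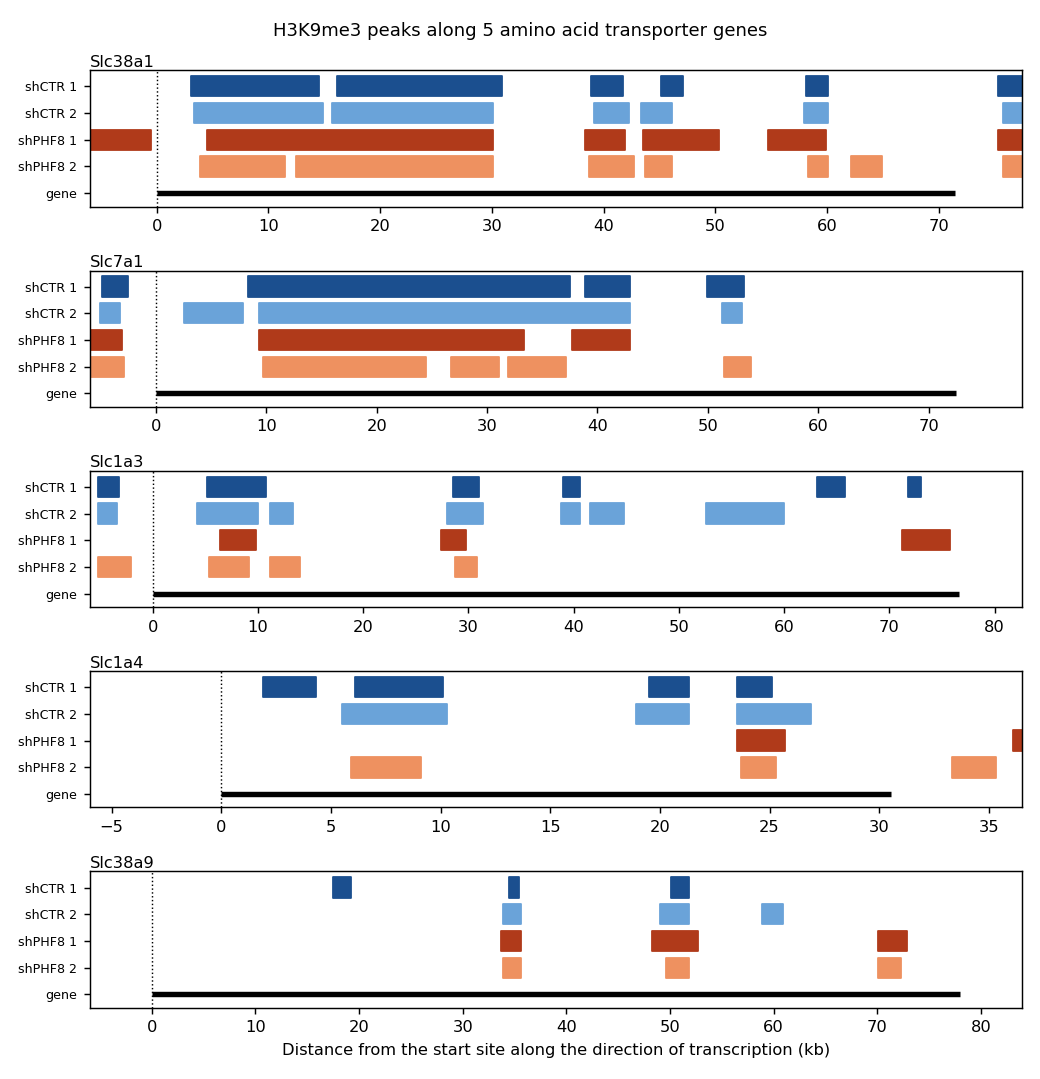
H3K9me3 peaks (bars, 1 row per library) along 5 genes, by distance from the start site in kb, with the gene as a black line and peaks drawn to 6 kb beyond its ends. The long regions of Slc38a1 and Slc7a1 are present in all rows, Slc1a3 and Slc1a4 have regions in the 2 shCTR rows only, and Slc38a9 has 1 region near its 3′ end in the 2 shPHF8 rows only.

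Body coverage was higher in both shPHF8 libraries at 6 carriers (13.0%, beside 13.0% of all genes) and lower in both at 9 (19.6%, beside 6.08%). Among genes within the carriers' range of lengths the background was 18.1% higher and 8.18% lower. After scaling to the same covered total, 2 carriers were higher and 12 lower (4.35% and 26.1%, beside 6.98% and 14.1% of all genes). Of the 6 higher genes, Slc1a7 and Slc7a15 were still higher, Slc36a1, Slc36a3 and Slc43a2 had groups that overlapped, and Slc38a1 was lower. The 12 lower genes were the 9 lower as deposited, Slc38a1, Slc6a6 and Slc7a10. With libraries reduced to an equal covered length there were again 2 higher genes, Slc7a15 and Slc36a1, and 12 lower ones, among them Slc6a6, Slc7a14 and Slc38a9 (4.35% and 26.1%, beside 5.88% and 13.5% of all genes). The 9 lower genes were lower under both, which by their construction reduce the shPHF8 values. The count of higher genes rose to 11 without shCTR replicate 2 and to 10 without shPHF8 replicate 2, where fewer libraries had to be separated. The share over all genes was not computed for these 2 counts.

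The higher genes besides Slc38a1 had small covered parts. Slc7a15 had 5066 and 5866 covered bases in shCTR against 9666 and 10066 in shPHF8. The added bases lay in the body and not at the start, which was equal in all libraries. They lay mainly at different places in the 2 shPHF8 libraries. At chr12:8567601-8574600, a region of all 4 libraries, there were 1800 and 1800 bases in shCTR against 5600 and 2200 in shPHF8. At chr12:8537401-8540800 there were 3400 bases in shPHF8 replicate 2 alone. Slc36a1, the proton-coupled carrier PAT1 of lysosomes and gut, had 2400 and 2000 bases in shCTR against 5000 and 3000 in shPHF8. Slc43a2, the leucine facilitator LAT4, had 1400 and 2200 bases in shCTR against 2800 and 2600 in shPHF8. In both genes this was a single region, present in all libraries, whose width differed.

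Slc1a7, the retinal glutamate carrier EAAT5, had 1200 and 0 bases in shCTR against 3400 and 1800 in shPHF8. Slc36a3 had 0 and 3000 bases in shCTR against 3908 and 5200 in shPHF8. At Slc1a7, Slc36a1, Slc36a3 and Slc43a2 the gap between the groups was under 1000 bases, and with a gap of at least 1000 bases required, 2 higher genes were left, Slc7a15 and Slc38a1, and 6 lower ones (4.35% and 13.0%, beside 8.67% and 3.77% of all genes).

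The lower genes besides Slc1a4 and Slc7a1 belonged to several families. Slc1a3 (GLAST, chr15:8634124-8710764) had 13400 and 23800 covered bases in shCTR against 10400 and 8600 in shPHF8, over 9 regions. Slc7a11 (xCT) had 22000 and 23600 bases in shCTR against 20800 and 18200 in shPHF8. Its GENCODE record runs 472 kb past the RefSeq 3′ end, and over RefSeq spans the counts of higher and lower carriers were again 6 and 9.

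Slc6a20a had 3885 and 4885 covered bases in shCTR against 3085 and 2400 in shPHF8, and was lower by less than 1000 bases. Slc38a6, a SNAT family member, had 2200 and 3800 bases in shCTR against 0 and 0 in shPHF8, but its 3 regions were each in a single shCTR library, so no position was shared by the replicates. Slc6a15, Slc7a6 and Slc36a2 were lower through regions absent from shPHF8, which are described next.

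Regions were compared between conditions by their presence in the libraries. Peaks of the 4 libraries merged into 100 regions in the genes and 3 kb on each side, with no region counted at more than 1 carrier. Of these, 37 were present in all 4 libraries (37.0%, beside 37.9% of the 71107 merged regions of the genome), 6 in both shCTR and neither shPHF8 library (6.00%, beside 5.03%) and 1 in both shPHF8 and neither shCTR library (1.00%, beside 4.28%). A further 38 were in 1 library only, 15 of them in shCTR replicate 2. Regions in all 4 libraries were wider, with a median of 5800 against 2800 bases for the other regions. Merging peaks of more libraries makes a region wider by construction, so these widths are not a property of the mark alone. Of the 100 regions, 41 lay in introns alone and 31 touched coding sequence.

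By gene, 6 carriers had a lost region (13.0%, beside 8.52% of all genes) and 1 had a gained region (2.17%, beside 4.90%). Among genes within the carriers' range of lengths, 11.7% had a lost and 6.37% a gained region. The lost regions were 1800 to 4000 bases wide, and 4 of the 6 held no exon bases. Those of Slc6a15 and Slc7a11 touched the promoter window and are given above. That of Slc1a4, chr11:20311401-20313800, had 1800 and 2400 covered bases in shCTR, and that of Slc1a3, chr15:8670201-8672000, had 1600 and 1800. Slc7a6, the light chain y+LAT2, had 1600 and 1400 bases at chr8:106187001-106189000, its only region. Slc36a2, the carrier PAT2, had 600 and 2400 bases at chr11:55171201-55173600.

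The gained region was in Slc38a9, at chr13:112730801-112733600 near the 3′ end of the gene. It had 0 and 0 covered bases in shCTR against 2800 and 2200 in shPHF8, and 2102 of its 2800 bases were exonic, 163 of them coding. Over the whole body of Slc38a9 the groups overlapped, with 4600 and 6600 bases in shCTR against 9200 and 6200 in shPHF8. Under an equal covered length per library the region of Slc38a9 was no longer called as gained, and 11 carriers had a lost region. That setting cuts mainly the shPHF8 lists by construction. The counts depend on every library being asked for: carriers with a gained region numbered 3 when either shCTR library was left out, 10 when shPHF8 replicate 1 was left out and 6 for shPHF8 replicate 2. Carriers with a lost region numbered 15 when shCTR replicate 1 was left out, 11 for shCTR replicate 2 and 8 for either shPHF8 library. For region counts at equal covered length or with a library left out, the share over all genes was not computed. They are therefore not set beside a background.

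The 12 serine, glycine and glutamine carriers had a larger share of their bodies under H3K9me3 than the other 34. Summed over the list, peaks covered 19.2 and 20.2% of the bodies in shCTR against 19.8 and 19.7% in shPHF8. For the other 34 the values were 6.72 and 8.17% in shCTR against 6.98 and 6.50% in shPHF8, and for all protein-coding genes 6.81 and 7.01% in shCTR against 8.71 and 7.82% in shPHF8. Slc38a1 alone held about as much as the rest of its list: without it the values were 12.4 and 13.3% in shCTR against 10.4 and 11.9% in shPHF8. Over RefSeq spans, in which the record of Slc7a11 is shorter, the lists had 20.3 to 21.4% and 7.80 to 9.83%. The gap also depended on which genes were listed: with a wider list of 23 carriers of these amino acids the values were 10.3 to 12.1%, against 7.04 to 8.73% for the 23 others. Within a list the genes ranged widely, and the lists were chosen with earlier results known, so the difference was not tested.

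**Figure D5:**
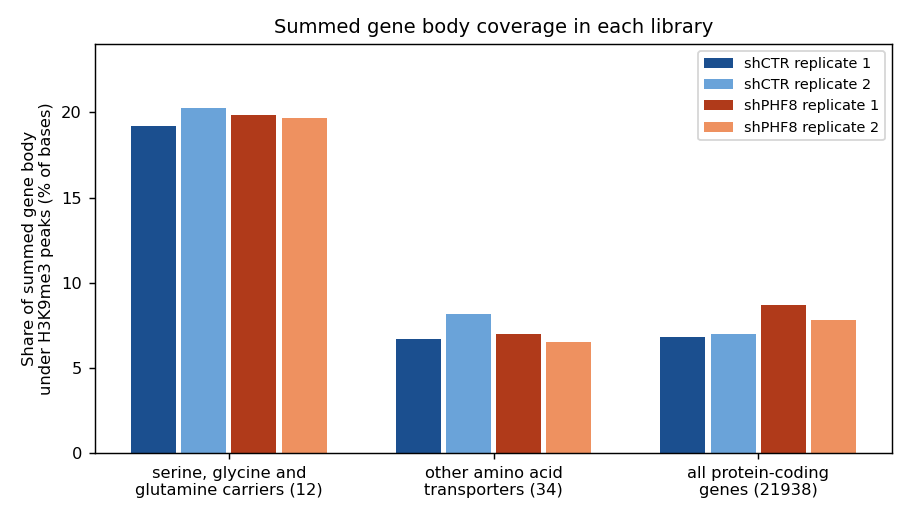
Share of the summed gene bodies under H3K9me3 peaks (y axis, % of bases) in each library (bars) for the 12 serine, glycine and glutamine carriers, the other 34 carriers and all protein-coding genes. The first list sits at 19.2 to 20.2% in every library and the second at 6.50 to 8.17%, and all protein-coding genes are the only set in which both shPHF8 bars are above both shCTR bars.

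Counts between the conditions were small in both lists. A promoter peak in at least 1 library was present at 6 of 12 serine, glycine and glutamine carriers (50.0%) and 15 of 34 others (44.1%). Body coverage was higher in both shPHF8 libraries at 2 of 12 (Slc36a1 and Slc38a1) and 4 of 34, and lower in both at 2 of 12 (Slc1a4 and Slc36a2) and 7 of 34. The first of these counts was 4 of 12 without shCTR replicate 1 and 0 of 12 after scaling to the same covered total. A lost region was found at 2 of 12 and 4 of 34, and a gained one at 0 of 12 and 1 of 34. Summed covered bases in shPHF8 over shCTR had a ratio of 1.00 for the first list and 0.905 for the others.

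For all 46 genes together the ratio was 0.935 (SD 0.0869 over the 4 pairs of an shPHF8 and an shCTR library), against 1.20 for all protein-coding genes. The 4 pairs share libraries and are not independent, so this SD is not an error of the ratio. The summed bases were 213946 and 249127 in shCTR against 221847 and 211026 in shPHF8, so the groups overlapped, with the lowest value in shPHF8 replicate 2. In the sum over these carriers, the gain of covered length that all genes showed was thus not seen. Single genes weighed on this sum. The largest falls in mean covered bases from shCTR to shPHF8 were at Slc7a1 (38700 to 28000) and Slc1a3 (18600 to 9500). The largest rises were at Slc38a1 (33600 to 38700) and Slc7a15 (5466 to 9866). In the promoter windows the ratio was 1.01 for the carriers and 1.00 for all genes.

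Some less covered carriers complete the account of the serine, glycine and glutamine list. Slc38a3, the glutamine carrier SNAT3, had 2000 and 5400 covered bases in shCTR against 3400 and 5200 in shPHF8, and peaks covered 31.6 to 86.9% of its coding bases. Slc38a2 (SNAT2) had 2009 bases in shCTR replicate 2 only, and Slc38a8 had 1999 bases in shPHF8 replicate 2 only. Slc6a5 had 13455 and 9655 bases in shCTR against 11455 and 12655 in shPHF8. None of these separated the groups. Slc36a1, Slc36a2 and Slc36a3 are neighbours on chromosome 11, 19.3 and 6.76 kb apart, and Slc38a1 and Slc38a2 lie 44.5 kb apart, and no merged region was shared by neighbours.

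The remaining carriers with peaks in the body had groups that overlapped. Slc1a2, the astrocytic glutamate carrier GLT-1, was covered over 1.21 to 3.78% of its body. The ranges were 6.34 to 17.9% at Slc6a17, 7.35 to 11.3% at Slc7a2, 7.45 to 15.3% at Slc7a7, 0 to 4.69% at Slc7a8 and 5.51 to 9.23% at Slc7a14. Slc38a11 had 1200 covered bases in shCTR replicate 1 only.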

How the data were processed

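H3K9me3 ChIP-seq peak lists were analysed from 2 shCTR and 2 shPHF8 libraries. The deposited files hold peak positions only (chromosome, start and end, with no score). Per the study's methods, the authors mapped the reads with SOAPaligner/SOAP2 to mm10 and called broad peaks with SICER2, 1 list per library, whereas the submitters' processing notes name Bowtie2 2.3.5.1, SAMtools 1.9 and deepTools. Window, gap, threshold and use of the input are not given in the sources used here. Whether a peak is called depends on sequencing depth and on the caller's threshold, neither of which is in the lists, so no interval for counting error can be given.

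Starts were taken as 0-based and ends as inclusive, since all widths are then whole steps of 200 bp, and positions are printed 1-based. Only autosomes 1 to 19 and both sex chromosomes entered, so 2 peaks of each library were left out. Genes are GENCODE M21 records on the same build (symbols matched for 46 of 46 carriers), the promoter is 3 kb on each side of the gene's start, and regions are peaks of the 4 libraries merged where they overlap or touch. A gene was called higher or lower when both shPHF8 values lay above or below both shCTR values, and a region was called gained or lost when it had peaks in both libraries of 1 condition and neither of the other. Background shares are over 21938 protein-coding genes. All 46 genes are accounted for, with per-library values for those with a promoter peak, a call, a gained or lost region or 1 of the 5 highest mean body shares. For 1 of the other amino acid carriers the values are not reported here. The members and lists were chosen with earlier results of these data known.

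Alternatives were other promoter and body windows, wider gaps between groups, wider peaks only, equal covered length or total, other region rules, a replicate block and leaving out each library. RefSeq gene spans, the gap of 400 bases and crossed replicate numbers were added after seeing the data. Python 3.11.15, numpy 2.4.6, matplotlib 3.10.9 and bedtools 2.31.1 were used, and coverage, merging and calls were tested on simulated data. The cell number per ChIP differs between the labels and the methods, and the antibody of these libraries was taken to be the H3K9me3 antibody that the labels' target implies.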

Additional observations from a re-analysis of the deposited data

How the results depend on the processing

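Of the 12 results, the counts of carriers with a promoter or body peak and the count of lower bodies stayed within 1.5 times under each alternative that applied to them. Carriers with a promoter peak in all 4 libraries went from 5 to 12 with a 5 kb window and to 13 with any annotated transcript start. Promoter calls moved: higher from 1 to 3 with a 5 kb window, 4 with any transcript start, 0 at equal covered length and 2 under the replicate block, and lower from 4 to 1 with a 1 kb window, 1 with 3 kb upstream only, 2 with a gap of 1000 bases, 2 with a gap of 400 bases and 7 after scaling to the same total. Higher bodies went from 6 to 2 with a gap of 1000 bases, 2 at equal covered length and 2 after scaling. Among the serine, glycine and glutamine carriers, higher bodies went from 2 to 1 with a gap of 1000 bases, 1 at equal covered length and 0 after scaling, and promoter peaks from 6 of 12 to 11 of 23 on the wider list of carriers. At equal covered length, carriers with a gained region went from 1 to 0 and with a lost region from 6 to 11. The ratio of summed body coverage went from 0.935 to 0.712 at equal covered length and to 0.712 after scaling. Both alternatives cut the shPHF8 libraries by construction, in the counts above as in the ratio. The causes of the other shifts were not tested.

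Leaving out 1 library at a time, by construction an easier rule, gave 1 to 6 higher and 5 to 7 lower promoters, 9 to 11 higher and 10 to 13 lower bodies, 3 to 4 higher bodies among the serine, glycine and glutamine carriers, and 3 to 10 carriers with a gained and 8 to 15 with a lost region. The ratio ran from 0.869 to 1.01. Shares over all genes were not computed with a library left out, so these counts have no background beside them.

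The libraries were not treated as paired, since no label ties equal replicate numbers to a shared culture or day. Deviations of equal numbers over 10353 gene bodies had a correlation of -0.108. This value cannot settle the pairing, because library totals enter it. Replicate 1 covered less than replicate 2 in shCTR (157 against 160 Mb) and more in shPHF8 (219 against 197 Mb). With the replicate block, both same-numbered pairs moved up at 2 promoters and 9 bodies and down at 4 promoters and 10 bodies, with 3 higher bodies among the serine, glycine and glutamine carriers. With the numbers crossed, the counts were 2 and 8 up, 5 and 9 down, and 2.

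The peak lists give no heights or depth, so all values state where a peak was called.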

Other observations

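Amino acid carriers outside the 46 genes were counted in the same way, from a list of vesicular, mitochondrial, GABA and remaining plasma membrane carriers of which 23 of 24 symbols matched the annotation. A peak within 3 kb of the start was present in at least 1 library at 9 of the 23 (39.1%) and in all 4 at 5 (21.7%), beside the background shares given above. Slc38a4, a carrier of small neutral amino acids in liver and placenta, had 4601 and 4601 covered bases in shCTR against 6001 and 6001 in shPHF8. Its body coverage was also higher, with 5956 and 7356 bases in shCTR against 19156 and 14156 in shPHF8. Slc17a7, the vesicular glutamate carrier VGLUT1, had 2949 and 3749 bases near its start in shCTR against 3949 and 3949 in shPHF8, and its body was covered almost whole in all libraries.

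Slc17a6, the vesicular glutamate carrier VGLUT2, had 4806 and 3806 bases near its start in shCTR against 1206 and 1406 in shPHF8. Slc6a11, the GABA carrier GAT3, had 641 and 241 bases in shCTR against 0 and 0 in shPHF8, and 42000 and 51600 against 35800 and 30200 over its body. Sfxn1, the mitochondrial serine carrier, had 2869 and 3601 bases in shCTR against 2669 and 2669 in shPHF8, a gap of 1 step of the peak lists. A gained region was found at Slc25a12, a mitochondrial aspartate and glutamate carrier, and a lost region at 0 of the 23 genes. These groups are read without a test, for the same reason as above.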
